A study of Mus musculus with 46 samples.

Results

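Microglia sorted from gliomas labelled as recurrent under BLZ945, an inhibitor of the CSF1 receptor, were compared with microglia sorted from gliomas of vehicle-treated mice. The comparison took every microglia library whose label gives BLZ945 recurrence without irradiation, 2 mice (67668 and 70696), and every microglia library labelled vehicle, 4 mice (41, 65966, 65967 and 78). These 6 libraries are part of 23 microglia libraries and of 46 libraries in the whole study, which also holds bone marrow-derived macrophages (BMDM) of the same mice, samples taken at 5 days, and recurrences after radiation (IR) or after IR with BLZ945. All groups share one tumour model. DF1 cells producing RCAS-PDGFB-HA were injected into the brain of nTVA Ink4a/Arf KO/KO mice at week 6 of age, so vehicle mice carry the Ink4a/Arf loss as well. In nTVA mice the viral receptor is driven by the nestin promoter, which restricts infection to neural progenitor-like cells. Age at collection, the time from treatment to recurrence and whether BLZ945 was still given at collection are not given in the sources used here.

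Microglia are the resident macrophages of the brain. They depend on CSF1R, the receptor for CSF1 and IL-34, and BLZ945 is a small molecule that blocks its kinase. In the resting brain microglia carry a set of receptors and adhesion molecules, among them P2RY12, GPR34 and CX3CR1, whose expression depends on TGF-beta signalling. MHC class II molecules, which present peptides to CD4 T cells, are low in resting microglia and are placed under the co-activator CIITA. The study's title names recurrence of irradiated gliomas as its subject, and the present comparison asks how microglia of a BLZ945 recurrence differ from those of an untreated glioma.

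The sort took CD45+ CD11b+ Ly6C- Ly6G- cells and used absence of CD49d to mark microglia. Itga4, which encodes CD49d, was measured at 2.26 and 3.21 CPM (counts relative to the library's total, scaled by the trimmed mean of M values) in BLZ945 recurrence, against 1.35 to 9.95 CPM in vehicle. In BMDM of the same mice it was at 30.7 and 63.0 CPM in BLZ945 recurrence, against 90.8 to 188 CPM in vehicle. Tmem119, a microglial marker, was at 1008 CPM or more in all 6 microglia libraries, while other microglial markers were lower in recurrence, as given with the microglia identity genes. Total counts were 10103424 and 10339111 in BLZ945 recurrence, against 12043262 to 16904331 in vehicle. Correlations of log2 CPM over genes were 0.933 between the 2 recurrence libraries, 0.943 to 0.97 between vehicle libraries and 0.885 to 0.933 across the groups. Mice 67668 and 41 expressed Y-linked genes and the other 4 expressed Xist. The mouse is the replicate, and 2 mice with BLZ945 recurrence were analysed here.

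Of 14534 genes tested with edgeR's quasi-likelihood test and Benjamini-Hochberg adjustment, 432 were higher in BLZ945 recurrence (2.97% of genes tested) and 81 were lower (0.557%), 3.53% in all, at an adjusted p under 0.05. The median log2 fold change of the genes that rose was 4.57 and that of the genes that fell was -1.76, beside a median of 0.00 over all genes. The risen genes were mostly low in vehicle, and the fallen genes were mostly well expressed there. The 432 and the 81 genes were chosen by a test on these same libraries, so their separation adds no support to the calls. Of the 432, 427 had both recurrence libraries above all 4 vehicle libraries, as did 13.6% of all genes. All 81 had both recurrence libraries below all 4 vehicle libraries, as did 9.48% of all genes. These counts depended on single mice: 52 genes passed without mouse 70696, 114 without vehicle mouse 41, 252 without 65967, 255 without 65966 and 312 without 67668. In all 6 such fits together 35 genes passed, of which 34 rose and 1 fell.

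**Figure D1:**
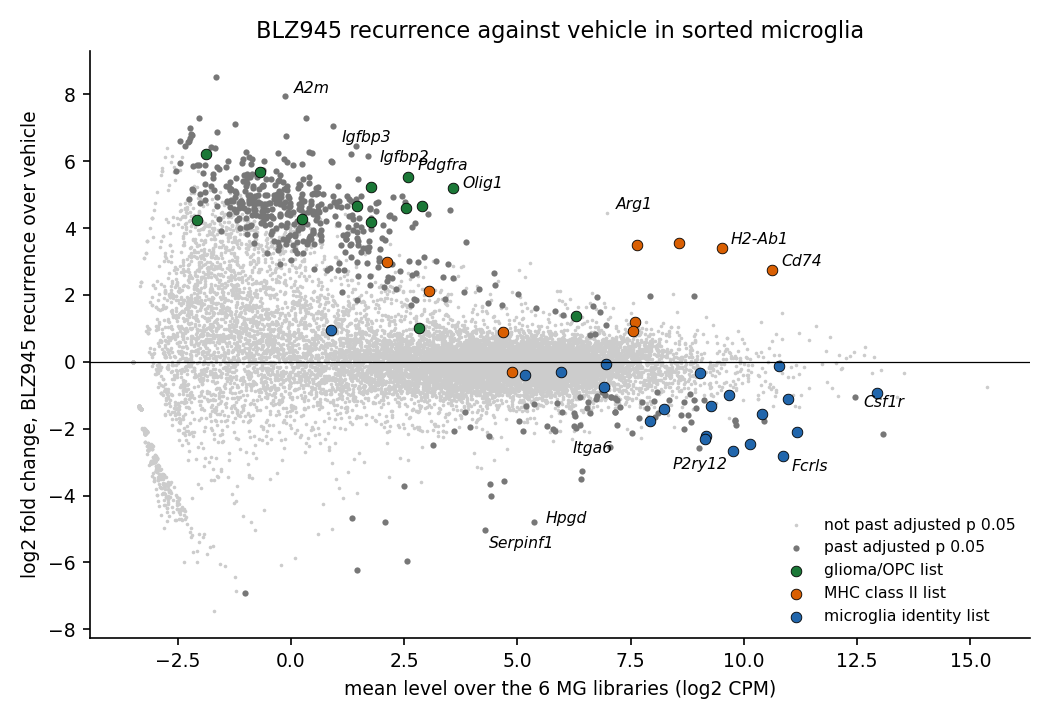
Log2 fold change of BLZ945 recurrence over vehicle in microglia (y axis) against the mean level over the 6 libraries in log2 CPM (x axis), 1 point per gene. Grey points mark the 513 genes past the threshold and coloured points mark 3 gene lists, with the glioma and oligodendrocyte precursor genes and 9 of 10 MHC class II genes above 0 and 19 of 20 microglia identity genes below it.

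A2m, which encodes the protease inhibitor alpha-2-macroglobulin (chromosome 6, 121635376 to 121679227, plus strand, mm10), had 10.3 and 48.2 CPM in recurrence mice 67668 and 70696, against 0.0622, 0.146, 0 and 0.269 CPM in vehicle mice 41, 65966, 65967 and 78. Both recurrence libraries stood above all vehicle libraries, which was a condition for the 15 largest rises, and mouse 70696 was the higher of the 2. The log2 fold change was 7.94 ± 0.98 (SE) with an adjusted p of 0.00061 in edgeR, and it passed under all 15 alternative fits. Mouse 70696 was the higher of the 2 for 362 of the 432 genes that rose. The sum of CPM over the 432 genes was 31664 in mouse 67668 and 14847 in mouse 70696, against 2834 to 3681 in vehicle. MHC class II genes held much of it in mouse 67668. The 10 listed, of which 5 rose, summed to 24100 CPM there and 4870 CPM in mouse 70696.

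Among the 15 largest rises, Col11a1, a fibrillar collagen chain, had 12.2 and 61.8 CPM in BLZ945 recurrence, against 0 to 0.359 CPM in vehicle (log2 fold change 7.29 ± 1.17, adjusted p = 0.00284, edgeR). Col18a1, the basement membrane collagen from which endostatin is cut, had 40.1 and 66.6 CPM in recurrence, against 0 to 0.898 CPM in vehicle (7.05 ± 1.2, adjusted p = 0.0031, edgeR). Tnc, which encodes the glioma matrix protein tenascin C, had 7.60 and 43.2 CPM in recurrence, against 0.0732 to 0.539 CPM in vehicle. Col16a1, Ncan (neurocan, a brain proteoglycan), Bmp7 and Wnt7b (secreted morphogens), Serpina3n (a secreted serine protease inhibitor), Hhipl2, Moxd1, Pnlip and Susd4 completed the 15 together with A2m and the IGF binding proteins. Their log2 fold changes lay between 5.97 and 6.75. Lack of overlap with vehicle was a condition for the 15, so it is no result of theirs. Of the listed collagens and matrix proteins, 2 of 20 rose and 1 fell, beside 2.97% of all genes higher and 0.557% lower. The list's median log2 fold change was 2.68, and 11 of the 20 had both recurrence libraries above vehicle, beside 13.6% of all genes.

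The insulin-like growth factor axis holds ligands, receptors and binding proteins that regulate access of IGF to its receptor. Of 13 measured members 3 rose and none fell, and all 13 log2 fold changes were above 0 (median 2.42), beside 2.97% of all genes higher and 49.9% above 0. Igfbp3 had 23.8 and 92.1 CPM in BLZ945 recurrence, against 0.622, 0, 1.13 and 1.35 CPM in vehicle mice 41, 65966, 65967 and 78. Igfbp2 had 68.7 and 64.0 CPM in recurrence, against 0.808, 0.146, 0.415 and 2.42 CPM in the same vehicle mice. Both genes encode secreted IGF binding proteins. For both all recurrence libraries exceeded all vehicle libraries, which was a condition for the 15 largest rises. The log2 fold change was 6.22 ± 0.78 for Igfbp3 (adjusted p = 0.00061) and 6.17 ± 0.99 for Igfbp2 (adjusted p = 0.00284, edgeR), and each passed in all 15 alternative fits. Igf2r, the receptor that clears IGF2, was at 7.90 and 18.9 CPM in recurrence, against 1.93 to 3.05 CPM in vehicle (2.42 ± 0.67, adjusted p = 0.0492, edgeR). Igf2r passed in 4 of 15 alternative fits, with log2 fold changes of 1.65 to 2.91 and adjusted p-values up to 0.416. Igf1 itself had 189 and 45.3 CPM in recurrence, against 37.9 to 134 CPM in vehicle, and the overlapping groups gave 0.57 ± 0.81 (adjusted p = 0.86, edgeR).

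Transcripts of glioma cells and oligodendrocyte precursors were higher in the recurrence libraries. Of 13 measured genes of that list 9 rose and none fell, with a median log2 fold change of 4.66, beside 2.97% of all genes higher. Pdgfra, the PDGF receptor that marks these cells, had 46.7 and 260 CPM in BLZ945 recurrence, against 2.30, 0, 8.84 and 1.97 CPM in vehicle (5.53 ± 1.00, adjusted p = 0.00463, edgeR). The transcription factor gene Olig1 had 106 and 207 CPM in recurrence, against 0.951 to 6.82 CPM in vehicle (5.21 ± 0.79, adjusted p = 0.00257, edgeR). Sox10, Sox2, Cspg5 and Olig2, also genes of the glial precursor lineage, rose by 5.22, 5.68, 4.66 and 4.66 on the log2 scale, and none of their libraries overlapped between groups. Summed over the list, the level was 487 and 1010 CPM in recurrence, against 63.9 to 105 CPM in vehicle. In bulk libraries, RNA from other cells in the sort and expression by microglia themselves cannot be told apart, nor can fewer cells of a type and less RNA per cell.

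Lists of other brain cells had fewer genes past the threshold, beside 2.97% of all genes higher. Of 9 neuronal genes 3 rose (Tubb3, Syn1 and Mtap2), with 29.1 and 57.9 CPM summed in BLZ945 recurrence, against 1.68 to 7.60 CPM in vehicle. Of 10 astrocyte genes 1 rose (Slc1a2, a glutamate transporter, 2.97 ± 0.82). Of the 10, 8 were above 0 (median 2.16), beside 49.9% of all genes. In 7 both recurrence libraries lay above vehicle, beside 13.6% of all genes. The summed level of the astrocyte list was 282 and 390 CPM in recurrence, against 405 to 2180 CPM in vehicle, most of it from Slc1a3, a glutamate transporter, with 173 and 261 CPM in recurrence, against 391 to 2163 CPM in vehicle. Of 7 oligodendrocyte genes 2 rose (Cldn11 and Cnp), of 11 endothelial and mural genes 1 (Flt1, a VEGF receptor) and of 9 choroid plexus and ependyma genes 1 (Enpp2, autotaxin). Cnp, at a log2 fold change of 0.80 ± 0.22, passed in 3 of 15 alternative fits. Slc1a2 passed in 6, Enpp2 in 7, Flt1 in 8 and Cldn11 in 9. Without mouse 70696, 1 glioma gene and 1 neuronal gene passed, against 9 and 3 without mouse 67668. Without vehicle mouse 41 or 65966, 1 neuronal gene and no oligodendrocyte gene passed. Syn1 contains Timp1 on the opposite strand and no source used here states whether counting used strand, so reads of these 2 genes cannot be told apart. The part of these transcripts in the genes that rose was not tested.

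**Figure D2:**
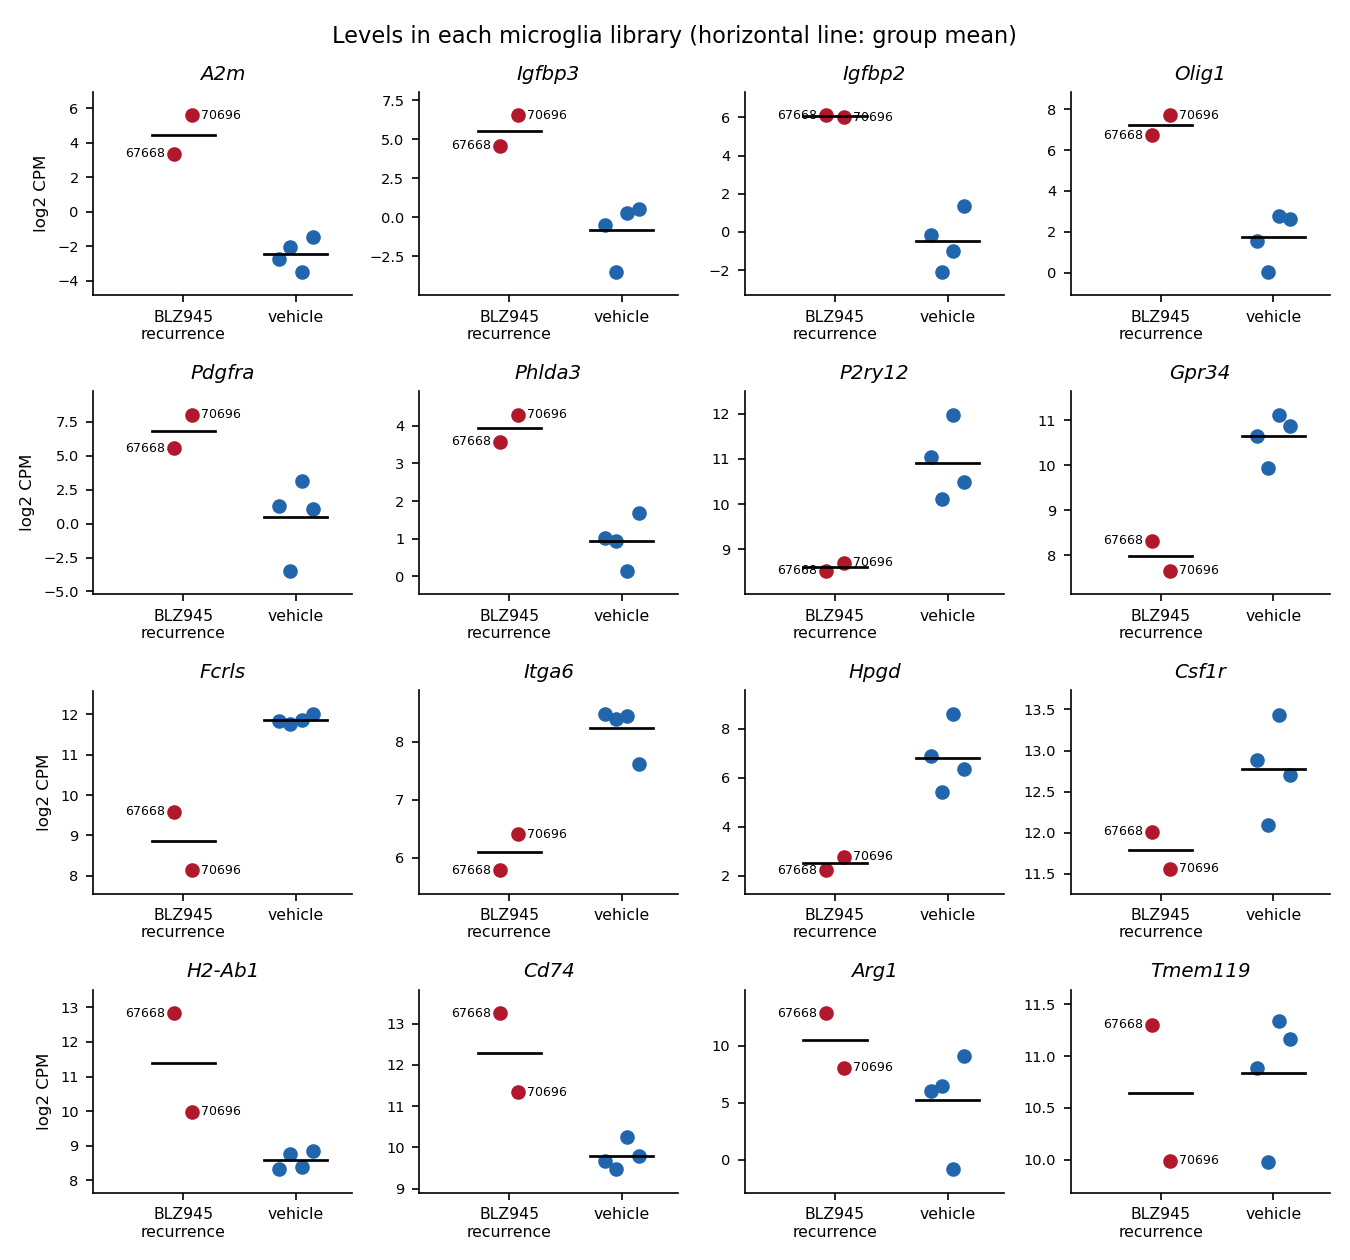
Level of 16 genes in log2 CPM (y axis, own scale per panel) in the 2 BLZ945 recurrence libraries (left, mouse numbers beside the points) and the 4 vehicle libraries (right), with a line at each group mean. The groups separate in all panels but those of Arg1 and Tmem119, and mouse 67668 stands above mouse 70696 for H2-Ab1, Cd74 and Arg1.

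Genes that mark resting microglia were lower in recurrence. Of 20 microglia identity genes 7 fell and none rose, 1 had a log2 fold change above 0, and the median was -1.23 (0.557% of all genes fell). Gpr34, a lysophosphatidylserine receptor, had 321 and 202 CPM in BLZ945 recurrence, against 1612, 983, 2231 and 1859 CPM in vehicle mice 41, 65966, 65967 and 78 (-2.68 ± 0.48, adjusted p = 0.00443, edgeR). P2ry12, the ADP receptor of ramified microglia, had 367 and 415 CPM in recurrence, against 2107, 1101, 4046 and 1433 CPM in the same vehicle mice (-2.47 ± 0.46, adjusted p = 0.00533, edgeR). Fcrls, an Fc receptor-like scavenger receptor, had 767 and 283 CPM in recurrence, against 3475 to 4119 CPM in vehicle (-2.83 ± 0.56, adjusted p = 0.00813, edgeR). For these 3 genes every recurrence library was below every vehicle library. Gpr34 and P2ry12 lie within the spans of Cask and Med12l on the opposite strand.

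Siglech, a sialic acid-binding lectin, fell by 2.31 on the log2 scale, Tgfbr1, a TGF-beta receptor subunit, by 2.21, and Sparc, a matricellular protein, by 2.10. Cx3cr1, the fractalkine receptor, was the remaining gene that fell (-1.56 ± 0.37, adjusted p = 0.0224, edgeR). Tmem119, a microglial surface protein, had 2522 and 1017 CPM in BLZ945 recurrence, against 1008 to 2594 CPM in vehicle, and the groups overlapped (-0.13 ± 0.37, adjusted p = 0.943, edgeR). The list's median stayed between -1.42 and -1.03 when any 1 of the 6 libraries was left out. The number of its genes past the threshold was 0 without mouse 70696, 2 without mouse 67668 and 5 to 9 without a vehicle mouse.

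Single genes of the TGF-beta, CSF1 receptor and microglial transcription factor lists also fell, beside 0.557% of all genes. Tgfbr2, the partner of Tgfbr1, had 264 and 285 CPM in BLZ945 recurrence, against 448 to 1152 CPM in vehicle (-1.38 ± 0.32, adjusted p = 0.0184, edgeR). These were the 2 genes called of 16 in the TGF-beta list, of which 0 passed without either recurrence mouse and 1 without vehicle mouse 41. Csf1r, the target of BLZ945, had 4113 and 3026 CPM in recurrence, against 7615, 4345, 11031 and 6637 CPM in vehicle mice 41, 65966, 65967 and 78. Its groups did not overlap, mouse 67668 and vehicle mouse 65966 lay close together, and the fall was close to the threshold (-1.05 ± 0.29, adjusted p = 0.0482, edgeR). Under 15 alternative fits its adjusted p lay between 0.0206 and 0.34. Among 15 microglial transcription factor genes, of which 3 were above 0 (median -0.55), Mef2c (-1.67 ± 0.38, adjusted p = 0.0181) and Jun (-1.78 ± 0.46, adjusted p = 0.032, edgeR) fell and none rose. No gene of that list passed without mouse 67668, 70696, 41 or 65967.

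Among the 15 largest falls, Hpgd, which degrades prostaglandins, had 4.62 and 6.82 CPM in BLZ945 recurrence, against 118, 42.3, 390 and 81.7 CPM in vehicle mice 41, 65966, 65967 and 78 (-4.78 ± 0.79, adjusted p = 0.00284, edgeR). Serpinf1, the secreted anti-angiogenic protein PEDF, had 1.85 and 2.65 CPM in recurrence, against 63.1, 15.7, 144 and 71.4 CPM in the same mice (-5.02 ± 0.99, adjusted p = 0.00742, edgeR). Both genes stood highest in vehicle mouse 65967, as did 66 of the 81 genes that fell. Gpr165, St8sia6, Adamts16, Rtn4rl1, Kcnk12, Upk1b, Kcnj2 (an inward rectifier potassium channel), Abca9 and Ank (a pyrophosphate transporter) fell by between 3.26 and 6.24 on the log2 scale. Gpr165, the largest fall, passed in 6 of 15 alternative fits, with log2 fold changes of -11.03 to -4.62. Upk1b passed in 8, Adamts16 in 9, and Kcnk12, Kcnj2 and Ank in 10 each. St8sia6 passed in 11, Rtn4rl1 in 12 and Abca9 in 13. Slc40a1, the iron exporter ferroportin, fell by 2.54. Without mouse 65967, 27 genes fell in place of 81.

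Itga6, the laminin-binding integrin alpha-6 subunit, was the only gene to fall in the comparison and in all 6 fits that left out 1 library. It had 55.4 and 84.7 CPM in BLZ945 recurrence, against 356, 336, 350 and 197 CPM in vehicle mice 41, 65966, 65967 and 78. Every recurrence library was below every vehicle library, as for all 81 genes that fell. The log2 fold change was -2.14 ± 0.30 (adjusted p = 0.00224, edgeR). Itga6 was the only integrin gene of 14 called, beside 3.53% of all genes called in either direction. In the fit over all 46 libraries its adjusted p was 0.175.

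Immediate early genes respond within minutes to stimulation and to tissue handling. Of 19 measured, 4 fell (Zfp36, Btg2, Jun and Ier3) and none rose, with a median of -0.82, beside 0.557% of all genes lower. Zfp36, which destabilises cytokine mRNAs, had 348 and 438 CPM in BLZ945 recurrence, against 753 to 1918 CPM in vehicle (-1.90 ± 0.38, adjusted p = 0.00888, edgeR). Btg2, also a p53 target, had 510 and 334 CPM in recurrence, against 690 to 2092 CPM in vehicle (-1.75 ± 0.38, adjusted p = 0.0126, edgeR). The number of the list's genes past the threshold was 0 without mouse 70696, 1 without mouse 67668 or vehicle mouse 41 and 2 without vehicle mouse 65967. The p53 target list as a whole had a median of -0.07 over 24 genes, with 2 rises and the fall of Btg2. Of all genes, 2.97% rose and 0.557% fell. Phlda3, an inhibitor of AKT, had 11.9 and 19.7 CPM in recurrence, against 1.01 to 3.14 CPM in vehicle (3.01 ± 0.48, adjusted p = 0.00284, edgeR). Eda2r, a TNF receptor family member, rose by 4.09 from low levels. Cdkn1a, the cell cycle inhibitor p21, had 395 and 275 CPM in recurrence, against 146 to 233 CPM in vehicle, and did not pass (0.82 ± 0.40, adjusted p = 0.347, edgeR).

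MHC class II genes were higher in recurrence, and much more so in mouse 67668 than in mouse 70696. Of 10 measured genes 5 rose and none fell, with a median of 2.44, beside 2.97% of all genes higher. Summed over the list the level was 24100 CPM in mouse 67668 and 4870 CPM in mouse 70696, against 1770 to 2180 CPM in vehicle. MHC class II genes share a promoter module that ends in a Y box, here searched as GATTGG on both strands and set in capitals. Of the 5 risen genes, H2-Ab1 had no entry in the RefSeq promoter table (GRCm38.p6, the same build as mm10), and Cd74 was left out. The promoters of the other 3 risen genes are shown for this module. They cover 250 bases before to 50 bases after the start site, at chr17:34287774-34288073 on the minus strand for H2-Aa, chr17:34305617-34305916 on the plus strand for H2-Eb1 and chr17:34144999-34145298 on the plus strand for H2-DMb2, written 5′ to 3′ on the strand of the gene.
H2-Aa: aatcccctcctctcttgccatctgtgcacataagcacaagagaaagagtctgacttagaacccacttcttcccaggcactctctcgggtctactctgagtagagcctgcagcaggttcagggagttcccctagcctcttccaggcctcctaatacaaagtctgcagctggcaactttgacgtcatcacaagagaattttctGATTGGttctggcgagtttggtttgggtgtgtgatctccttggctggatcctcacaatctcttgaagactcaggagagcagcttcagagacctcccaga
H2-Eb1: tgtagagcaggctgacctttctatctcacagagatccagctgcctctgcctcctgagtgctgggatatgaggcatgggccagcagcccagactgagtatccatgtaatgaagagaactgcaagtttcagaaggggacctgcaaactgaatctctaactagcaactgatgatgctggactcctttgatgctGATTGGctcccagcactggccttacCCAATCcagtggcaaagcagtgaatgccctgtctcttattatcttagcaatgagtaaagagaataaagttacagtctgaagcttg
H2-DMb2: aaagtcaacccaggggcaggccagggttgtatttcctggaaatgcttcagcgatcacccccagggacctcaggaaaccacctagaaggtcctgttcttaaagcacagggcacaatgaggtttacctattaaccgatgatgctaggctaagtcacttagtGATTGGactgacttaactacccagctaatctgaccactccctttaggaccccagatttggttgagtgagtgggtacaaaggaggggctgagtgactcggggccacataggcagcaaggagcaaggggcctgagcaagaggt

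The motif starts 49 bases before the start site in H2-Aa, 60 in H2-Eb1 and 91 in H2-DMb2, on the strand of the gene, and H2-Eb1 holds a further match on the other strand. It was present in at least 1 entry of each of the 7 listed genes whose entry was read, Cd74 not among them. Of 32851 promoters of the same length, 16.1% held it. A match is a description of these letters and says nothing of binding. Ciita, the co-activator acting through this module, had a log2 fold change of 2.99 ± 1.02 and did not pass (adjusted p = 0.118, edgeR), although both recurrence libraries lay above vehicle.

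H2-Ab1, the beta chain of the classical class II molecule I-A, had 7260 and 1006 CPM in recurrence mice 67668 and 70696, against 318, 430, 332 and 463 CPM in vehicle mice 41, 65966, 65967 and 78. Both recurrence libraries were above all vehicle libraries, with mouse 67668 far above mouse 70696, and the log2 fold change was 3.42 ± 0.80 (adjusted p = 0.0191, edgeR). H2-Aa, its alpha chain, had 4021 and 543 CPM in recurrence, against 172 to 238 CPM in vehicle (3.56 ± 0.93, adjusted p = 0.0359, edgeR). H2-Eb1 had 1879 and 349 CPM in recurrence, against 82.1 to 117 CPM in vehicle (3.49 ± 0.84, adjusted p = 0.0237, edgeR). Cd74, the invariant chain that escorts class II molecules, had 9727 and 2576 CPM in recurrence, against 712 to 1216 CPM in vehicle (2.76 ± 0.76, adjusted p = 0.0458, edgeR). These 4 genes kept mouse 67668 above mouse 70696 and both above vehicle.

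H2-DMb2, a chain of the peptide exchange factor H2-M, had 46.3 and 5.94 CPM in BLZ945 recurrence, against 4.04 to 8.78 CPM in vehicle, so mouse 70696 lay inside the vehicle range. It passed (2.13 ± 0.56, adjusted p = 0.038, edgeR), but reads may be shared with its near copy H2-DMb1, which was at 0.93 ± 0.40 (adjusted p = 0.266). Without mouse 67668 none of the 5 genes passed, the median of the list was 0.75 and H2-DMb2 was at -0.01. Without mouse 70696 the median was 3.19 and 3 genes passed. No gene of the list passed without vehicle mouse 41, 65966 or 65967, and 1 passed without vehicle mouse 78. Mouse 67668 was 1 of 2 mice with Y-linked transcripts, and with a term for that profile none of the 5 passed (median 2.05). Dendritic cell genes summed to 211 and 255 CPM in recurrence, against 565 to 1510 CPM in vehicle. Siglech, which is also a microglia identity gene, made up most of that sum, with 172 and 234 CPM in recurrence, against 535 to 1478 CPM in vehicle. No gene of the dendritic cell list rose, 4 of 9 were above 0, and the median log2 fold change was -0.04. B cell genes summed to 66.3 and 71.1 CPM in recurrence, against 43.5 to 82.0 CPM in vehicle. The part of other cells in the MHC class II levels was not tested.

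Few interferon and MHC class I genes passed the threshold. All 24 interferon-induced genes had log2 fold changes above 0 (median 1.08), beside 49.9% of all genes. Of the 24, 2 rose, beside 2.97% of all genes. Ifitm3, a membrane protein that blocks virus entry, had 718 and 640 CPM in BLZ945 recurrence, against 147, 218, 50.6 and 272 CPM in vehicle mice 41, 65966, 65967 and 78 (1.98 ± 0.52, adjusted p = 0.0354, edgeR). Irf7, a transcription factor of the interferon response, had 247 and 311 CPM in recurrence, against 36.1 to 109 CPM in vehicle (1.93 ± 0.53, adjusted p = 0.0477, edgeR). Both lay above vehicle in both recurrence libraries, and so did 15 of the 24 genes of the list, beside 13.6% of all genes. No gene of the list passed without mouse 67668, 70696, 41 or 65967, and 1 passed without 65966 or 78, while the list's median stayed between 0.92 and 1.19. All 12 MHC class I genes were above 0 as well (median 1.05), and none passed in edgeR or DESeq2, with 5 at an unadjusted p under 0.05. H2-K1, one of them, had 2536 and 2187 CPM in recurrence, against 736 to 1323 CPM in vehicle (1.2 ± 0.41, adjusted p = 0.116, edgeR).

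Among genes induced by IL-4 and IL-13, Arg1, which encodes arginase 1, had 7483 and 271 CPM in recurrence mice 67668 and 70696, against 67.5, 91.0, 0.475 and 549 CPM in vehicle mice 41, 65966, 65967 and 78. Mouse 70696 fell inside the vehicle range and mouse 67668 far above it, and the difference did not pass (4.46 ± 1.46, adjusted p = 0.102, edgeR). Tgm2, transglutaminase 2, had 1873 and 668 CPM in recurrence, against 208 to 459 CPM in vehicle, and rose (1.97 ± 0.41, adjusted p = 0.0102, edgeR). It was the 1 gene of 20 called in the list of IL-4 and IL-13 response genes, beside 3.53% of all genes. Of the 20, 16 had log2 fold changes above 0 (median 1.01), beside 49.9% of all genes. In 3 both recurrence libraries lay above vehicle, beside 13.6% of all genes. Summed levels were 10900 CPM in mouse 67668, most of it from Arg1, and 1800 CPM in mouse 70696, against 1110 to 2110 CPM in vehicle. Mrc1 had 11.8 and 2.49 CPM in recurrence, against 6.07 to 21.4 CPM in vehicle (-1.02 ± 0.88, adjusted p = 0.706), and Il4ra had a log2 fold change of 0.14 ± 0.38 (adjusted p = 0.944, edgeR).

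Protease and metabolic genes added a few calls, beside 2.97% of all genes higher and 49.9% above 0. Of 17 matrix metalloproteinase and TIMP genes 3 rose: Mmp15 (4.73 ± 0.83), Timp1 (5.63 ± 1.35) and the membrane-bound protease Mmp14, which had 86.9 and 93.3 CPM in BLZ945 recurrence, against 23.3 to 37.8 CPM in vehicle (1.61 ± 0.45, adjusted p = 0.0499, edgeR). Of that list 1 gene passed without any one of 67668, 70696, 41, 65966 and 65967. Pfkp, the platelet-type phosphofructokinase, was the 1 gene of 18 glycolytic genes to rise (2.65 ± 0.65, adjusted p = 0.0268), while all 18 were above 0. Sqle, squalene epoxidase of sterol synthesis, rose by 1.88 (adjusted p = 0.0338, edgeR). Fcgrt, the neonatal Fc receptor, rose by 1.67 although mouse 70696, at 81.1 CPM, lay inside the vehicle range of 49.3 to 122 CPM. Fcgrt passed in 5 of 15 alternative fits, and without mouse 67668 its log2 fold change was 0. Bcl2a1d, a survival gene with near-identical copies that can share its reads, rose by 2.04.

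Several programmes gave no call. For the 24 mitosis genes the median was 0.10, and for the 24 DNA replication genes it was 0.34. No gene of either list passed in edgeR or DESeq2, or was at an unadjusted p under 0.05. Mki67, a marker of dividing cells, had 24.1 and 116 CPM in BLZ945 recurrence, against 35.1 to 155 CPM in vehicle (-0.03 ± 0.76, adjusted p = 0.997, edgeR). For the 22 genes of blood-derived macrophages edgeR called 0, DESeq2 called 1 and 9 were at an unadjusted p under 0.05. Their median was 0.97, and 14 were above 0. In 7 both recurrence libraries lay above vehicle and in 2 below, beside 13.6% and 9.48% of all genes. Summed levels were 5230 and 3160 CPM in recurrence, against 2940 to 7710 CPM in vehicle. Mean log2 CPM was 4.85 in mouse 67668 and 3.88 in mouse 70696, against 2.62 to 4.52 in vehicle. Among the 21 genes of disease-associated microglia edgeR and DESeq2 called 0 and 6 were at an unadjusted p under 0.05 (median -0.40). Apoe had 5081 and 8583 CPM in recurrence, against 9279 to 20279 CPM in vehicle (-1.05 ± 0.71, adjusted p = 0.589), and Spp1, osteopontin, overlapped between groups (-1.02 ± 1.51, adjusted p = 0.872, edgeR). Chemokine genes of the CC family gave 0 calls in edgeR and 1 in DESeq2, with 2 at an unadjusted p under 0.05, and Ccl5 was at 52.1 and 319 CPM in recurrence, against 13.4 to 43.7 CPM in vehicle (2.96 ± 0.90, adjusted p = 0.0744, edgeR).

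**Figure D3:**
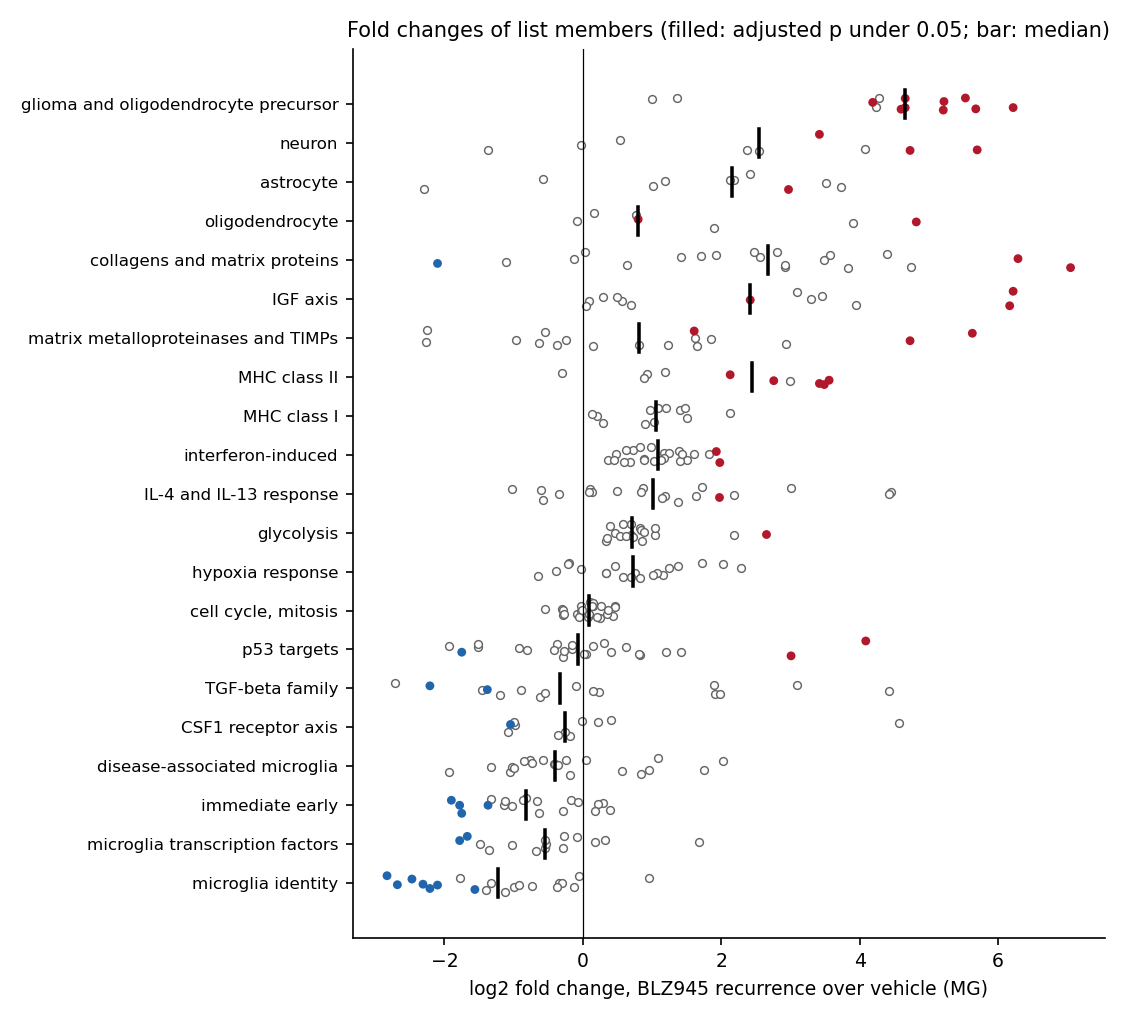
Log2 fold change of BLZ945 recurrence over vehicle (x axis) for the members of 21 gene lists (rows), 1 point per gene, with a bar at the list median. Red and blue filled points passed the threshold upward and downward, and the medians run from 4.66 for glioma and oligodendrocyte precursor genes to -1.23 for microglia identity genes.

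Comparing BLZ945 recurrence with the other recurrences and with 5 days of BLZ945 places these levels among the study's other stages. These comparisons share the 2 recurrence libraries with the one above and are given as values side by side. All IR recurrence mice expressed Y-linked genes, and all mice at 5 days of BLZ945 expressed Xist. In BLZ945 recurrence mouse 67668 expressed Y-linked genes and mouse 70696 Xist, so both comparisons are unbalanced for this profile. Against IR recurrence (4 mice), 4 genes were higher (0.0275% of genes tested) and 1 was lower (0.00688%), 0.0344% in all, and 539 were at an unadjusted p under 0.05. The 4 higher genes were H2-Ab1 (4.87 ± 0.83), H2-Aa (5.58 ± 0.99), H2-Eb1 (5.13 ± 0.89) and Cd74 (4.81 ± 0.80), and the lower one was Itga6 (-1.65 ± 0.30), each with an adjusted p of 0.0416 in edgeR. H2-Ab1 had 7260 and 1006 CPM in BLZ945 recurrence, against 131, 96.4, 219 and 119 CPM in the 4 mice of IR recurrence. Itga6 had 55.4 and 84.7 CPM in BLZ945 recurrence, against 207, 278, 177 and 216 CPM in IR recurrence. Without mouse 67668 the log2 fold change of H2-Ab1 was 2.83 with an adjusted p of 1, and without mouse 70696 it was 5.68 with an adjusted p of 0.0164 (edgeR). Against IR recurrence, 6 genes passed without mouse 70696 and 0 without mouse 67668 or without any 1 of the 4 IR recurrence mice.

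Several genes that rose against vehicle did not pass against IR recurrence. Igfbp3 had 23.8 and 92.1 CPM in BLZ945 recurrence, against 44.4, 44.5, 110 and 123 CPM in IR recurrence (-0.47 ± 0.72, adjusted p = 1, edgeR). Pdgfra had 46.7 and 260 CPM in BLZ945 recurrence, against 72.3, 103, 180 and 218 CPM in IR recurrence (0.10 ± 0.94, adjusted p = 1, edgeR). For both the groups overlapped, and the median log2 fold change of the glioma and oligodendrocyte precursor list was 0.05. Hpgd had 4.62 and 6.82 CPM in BLZ945 recurrence, against 58.5 to 102 CPM in IR recurrence, without overlap, and missed the threshold (-3.86 ± 0.75, adjusted p = 0.0989, edgeR).

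Against recurrence after IR with BLZ945 (4 mice), edgeR called 0 genes (0% of genes tested) and DESeq2 called 27, with 687 at an unadjusted p under 0.05 in edgeR. H2-Ab1 had 7260 and 1006 CPM in BLZ945 recurrence, against 461, 1013, 195 and 1952 CPM in IR with BLZ945 recurrence, and the groups overlapped (2.19 ± 0.78, adjusted p = 0.935, edgeR). Hpgd had 4.62 and 6.82 CPM in BLZ945 recurrence, against 66.7, 114, 264 and 86.0 CPM in IR with BLZ945 recurrence, without overlap (-4.53 ± 0.78, adjusted p = 0.0677, edgeR). The median of the glioma and oligodendrocyte precursor list was 1.64.

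Against 5 days of BLZ945 (4 mice), 918 genes were higher in BLZ945 recurrence (6.32% of genes tested) and 279 were lower (1.92%), 8.24% in all. Igfbp3 had 23.8 and 92.1 CPM in BLZ945 recurrence, against 0 to 0.103 CPM at 5 days (9.95 ± 1.03, adjusted p = 4.31e-05, edgeR). Pdgfra had 46.7 and 260 CPM in BLZ945 recurrence, against 0 to 0.515 CPM at 5 days (10.20 ± 1.32, adjusted p = 0.000139, edgeR). Both are near 0 at 5 days, so the size of these fitted folds depends on the prior count. Arg1 had 7483 and 271 CPM in BLZ945 recurrence, against 1.71 to 23.1 CPM at 5 days (8.30 ± 1.69, adjusted p = 0.00408, edgeR).

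Csf1r was lower in BLZ945 recurrence than at 5 days, with 4113 and 3026 CPM in BLZ945 recurrence, against 7000 to 9062 CPM at 5 days (-1.2 ± 0.29, adjusted p = 0.0136, edgeR). Of the microglia identity list 3 genes were lower and none higher (median -0.65), beside 1.92% of all genes lower. Gpr34 was among the 3 (-1.97 ± 0.46, adjusted p = 0.00994, edgeR). Of 24 mitosis genes 13 were higher in BLZ945 recurrence than at 5 days, with a median of 2.25, beside 6.32% of all genes higher. No MHC class II gene passed, and H2-Ab1 was already at 3826, 684, 3229 and 504 CPM at 5 days in mice 122, 123, 124 and 65975 (1.00 ± 0.79, adjusted p = 0.474, edgeR). The count of 1197 genes became 651 without mouse 67668, 735 without 70696, 639 without 5-day mouse 122 and 709 without 5-day mouse 124, and was 958 and 1649 without 123 and 65975.

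**Figure D4:**
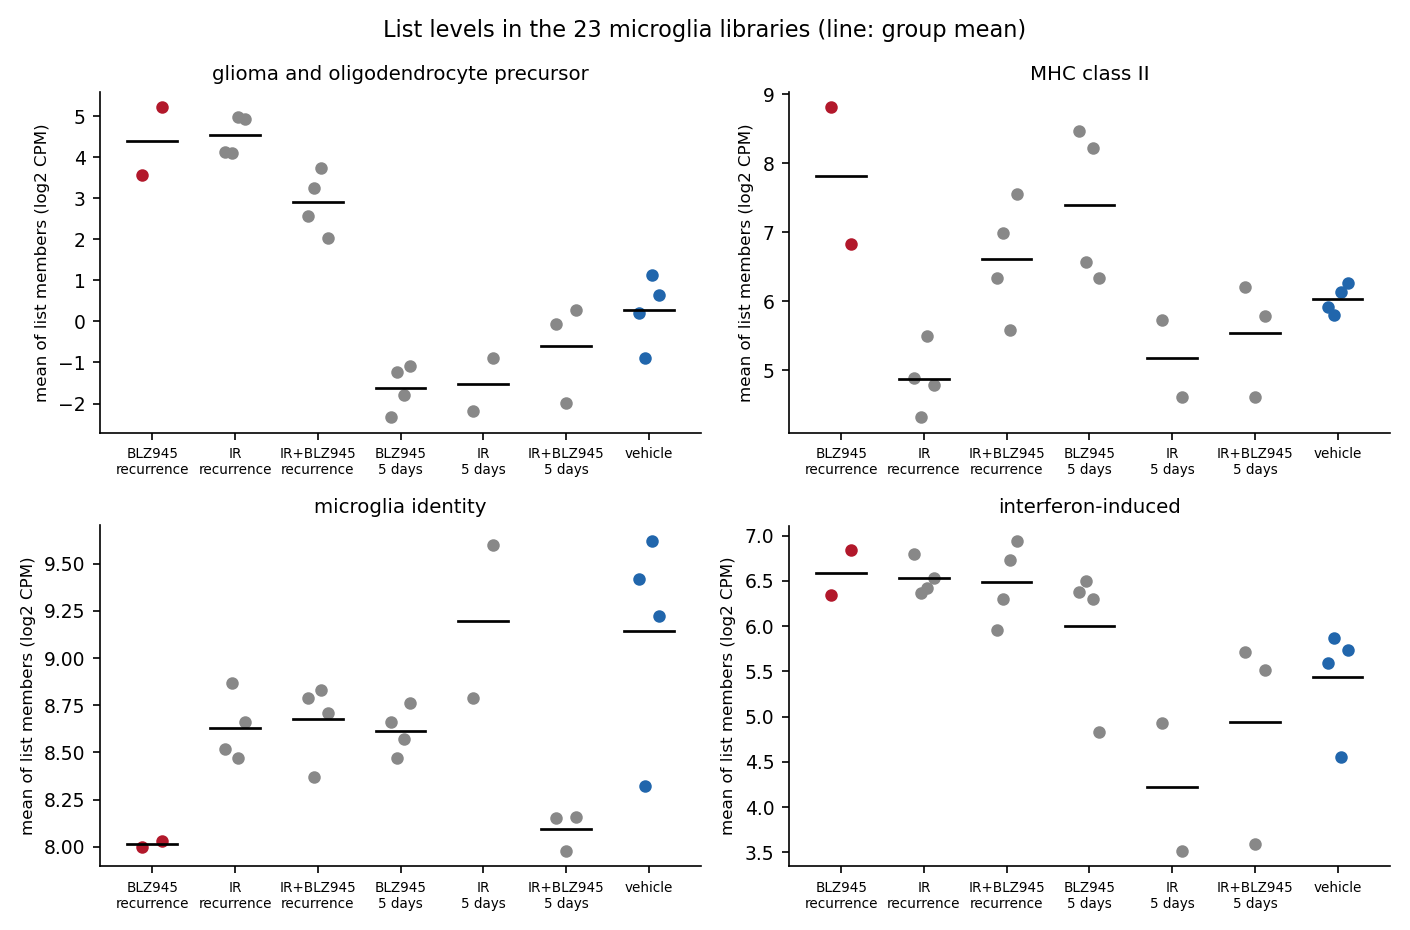
Mean log2 CPM of 4 gene lists (y axis) in each microglia library, 1 point per library, over 7 groups with BLZ945 recurrence first and vehicle last. The MHC class II list stood at 8.81 and 6.83 in BLZ945 recurrence and at 5.80 to 6.27 in vehicle, and the microglia identity list at 8.0 and 8.03 in BLZ945 recurrence and at 8.32 to 9.62 in vehicle.

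Bone marrow-derived macrophages of the same 6 mice were set beside microglia in 1 fit over all 46 libraries. In that fit 166 genes were higher in microglia of BLZ945 recurrence than in vehicle microglia (1.04% of 15901 genes tested) and 36 were lower (0.226%), 1.27% in all. The same contrast in BMDM gave 0 genes in edgeR (0%), with 1415 at an unadjusted p under 0.05. The difference between the cell types gave 0 genes in edgeR (0%) and 25 in DESeq2, with 478 at an unadjusted p under 0.05, and it was 0 in edgeR also with the mouse as a replicate block.

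H2-Ab1 had a log2 fold change of 3.40 ± 0.67 in microglia and -0.07 ± 0.68 in BMDM, and the difference of 3.47 ± 1.00 had an adjusted p of 1 in edgeR. Scaled over all 46 libraries, its level in BMDM was 12938 and 7107 CPM in BLZ945 recurrence, against 8056 to 16135 CPM in vehicle. Csf1r was at -1.12 ± 0.35 in microglia and 0.28 ± 0.33 in BMDM. A2m was at 7.84 ± 1.57 in microglia and 6.52 ± 1.6 in BMDM, and Pdgfra at 5.40 ± 1.15 in microglia and 4.02 ± 1.12 in BMDM. Of the 432 genes that rose in microglia, 381 (88.2%) were above 0 in BMDM of the same mice, beside 47.9% of all genes, with a median of 2.22 in BMDM and 4.49 in microglia. Of the 81 that fell, 4 (4.9%) were above 0 in BMDM, with a median of -0.69 in BMDM and -1.83 in microglia.

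**Figure D5:**
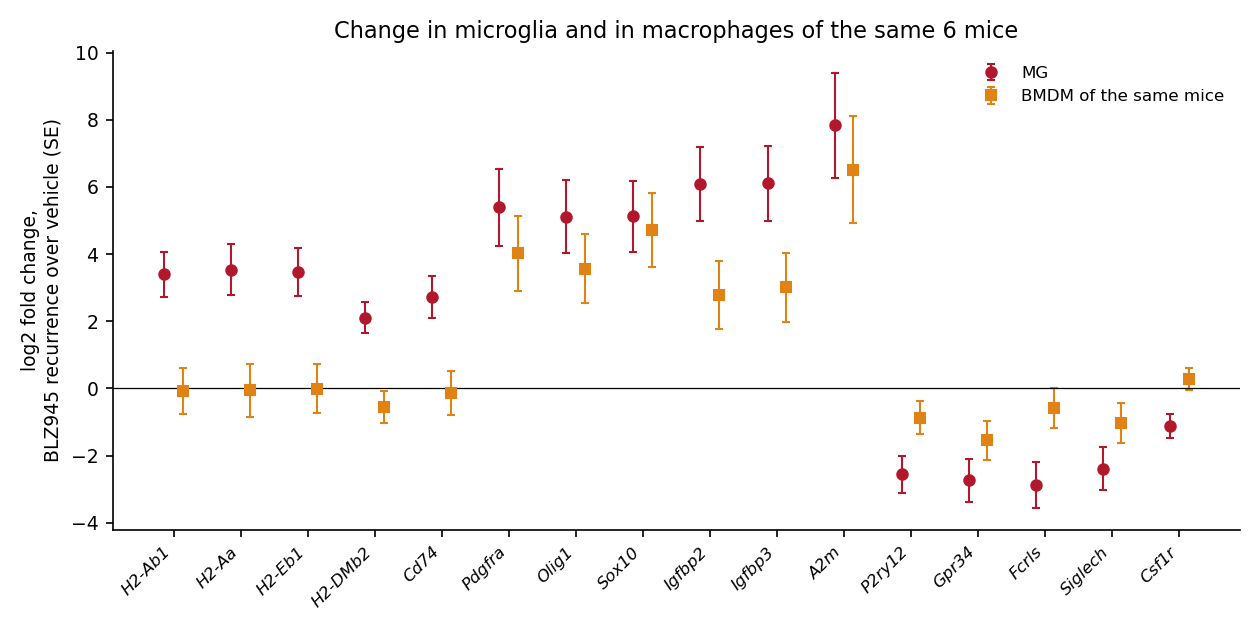
Log2 fold change of BLZ945 recurrence over vehicle for 16 genes in microglia and in BMDM of the same mice, from 1 fit over 46 libraries, with bars for the SE. H2-Ab1 lies at 3.40 in microglia and -0.07 in BMDM, while A2m lies at 7.84 in microglia and 6.52 in BMDM.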

How the data were processed

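Gene counts of 46 libraries, deposited by the authors as whole-number counts per gene, were used as given. The tools named, with no role, per the submitters' processing notes are STAR 2.5.0e, CASAVA 1.8, DESeq2 and HTSeq, and the build is mm10; the annotation and the strand setting are not given in the sources used here. Per the labels' protocols, libraries were Smart-Seq without molecular identifiers, so duplicated PCR products are counted.

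Genes were kept by filterByExpr (minimum count 10, minimum total 15), which left 14534 genes and 99.95% of counts. edgeR 4.0.16 in R 4.3.3 fitted all 23 microglia libraries together (TMM scaling, robust quasi-likelihood, 16 residual degrees of freedom), so the spread is shared with groups of 4 mice. Each SE is the log2 fold change divided by the square root of F, and p-values were adjusted by Benjamini-Hochberg over all genes at 0.05. Microglia were compared with BMDM in 1 fit over 46 libraries (15901 genes). Levels are CPM on TMM-scaled totals, with a prior count of 1 on the log2 scale. The fits were tested on simulated data.

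Of 680 listed genes, 672 matched by symbol, 4 by synonym and 4 had no match. Members and lists were chosen with earlier results of these data known. Genes were named as the 15 largest rises and falls that passed, had a mean of at least 3 log2 CPM in the higher group and did not overlap, plus called list members; some genes under this rule are not reported here. Alternatives were RLE scaling, DESeq2 1.42.0, no filter, the 2 groups alone, each library left out, terms for the sex-linked profile and for the Malat1 minus Lars2 level, leaving out 3 doubted libraries of other stages (2 with few counts and 1 whose sex-linked genes did not match its mouse's other library), a fit over 46 libraries and a test against a 1.5-fold change. Mouse numbers pair microglia and BMDM because both came from the same animal. Deviations of same-mouse libraries from their group means correlated at 0.078 to 0.153 for vehicle mice and at 0.433 for the recurrence mice. With 2 mice the deviations mirror each other, so 0.433 is 1 value and cannot be set against the vehicle values. Depth of all 46 libraries ran from 3007379 to 16993474 counts.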

Additional observations from a re-analysis of the deposited data

Results flagged for a closer look

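Of 173 values tested in groups of 4 mice, 16 had 1 mouse farther from the others than Dixon's 95% critical value allows; chance gives about 1 in 20. Among vehicle microglia, mouse 65967 stood apart for Ank at 9.07 log2 CPM, Il4ra at 7.98, the iron, heme and metallothionein list at a mean of 5.84 and the choroid plexus and ependyma list at -0.75. Vehicle mouse 65966 stood apart for Sparc at 10.87 log2 CPM, Sox10 at -1.69, Slc1a2 at -0.73, the astrocyte list at a mean of 0.64 and the oligodendrocyte list at 0.80. Vehicle mouse 78 stood apart for Itga6 at 7.62 log2 CPM and the matrix metalloproteinase and TIMP list at 4.14. At 5 days of BLZ945, mouse 65975 stood apart for the interferon-induced list at a mean of 4.83 log2 CPM, Myom1 at 2.39 CPM and Nlrp1a at 2.39 CPM. In IR with BLZ945 recurrence, mouse 67947 stood apart for Nlrp1a at 6.10 CPM. In the same group, mouse 67543 stood apart for Spint1 at 0.122 CPM, near the floor, where the other mice did not differ from one another.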

How the results depend on the processing

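The 513 genes called against vehicle became 940 with DESeq2, 1102 without 3 doubted libraries of other stages, 322 with the Malat1 minus Lars2 level as a covariate, 202 in the fit over 46 libraries and 52 to 492 with 1 library left out. The 1197 genes called against 5 days of BLZ945 became 2032 with DESeq2, 2383 without the doubted libraries, 219 with the Malat1 minus Lars2 term and 639 to 1649 with 1 library left out. The 5 genes called against IR recurrence became 23 with DESeq2, 1 with the libraries of the 2 groups alone, 0 with no filter, without the doubted libraries, with the sex-linked term and with the Malat1 minus Lars2 term, and 0 to 6 with 1 library left out. The 0 genes called against IR with BLZ945 recurrence became 27 with DESeq2, 1 with the 2 groups alone, 2 without the doubted libraries and 0 to 2 with 1 library left out. The 0 genes that differed between microglia and BMDM became 25 with DESeq2 and were 0 with the mouse as a replicate block. H2-DMb2 turned to -0.01 without mouse 67668 and was at 2.95 without mouse 70696. The cause of these changes was not tested. With 2 recurrence mice, each fold rests on their agreement, and genes with few counts in vehicle have folds that depend on the prior count.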
